A study of Mus musculus with 3 samples.

Results

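The genes described here are those of MHC class I antigen presentation and the immunoproteasome in mouse thymic cultures, H2-K1, H2-D1, B2m, Tap1, Tapbp, Psmb8, Psmb9, Psmb10 and Nlrc5. They were chosen by symbol for their roles, not by their values, and make up 9 of the 32285 genes in the count matrix. All 9 were found, and their unique molecular identifier (UMI) counts were read in thymocyte stages, other immune cells, epithelial cells and mesenchymal cells.

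The cells came from 2 pools of wild-type cultures, each sampled at day 13, with no treatment given to 1 pool as a contrast to the other. The FTOC pool (fetal thymic organ culture) held intact fetal lobes of C57BL/6J mice. The ORFTOC pool (organoid reaggregate fetal thymic organ culture) held thymic epithelial cells (TECs) of older embryos, first grown as organoids with FGF7. They were reaggregated with EpCAM-depleted cells of fetal lobes and with wild-type mouse embryonic fibroblasts, whose strain is not given in the sources used here. The fetal lobes used for both pools were of the same, earlier embryonic day. Both kinds of culture were kept in the same medium with FGF7, and 2 cultures were mixed for each pool before a hashtag antibody marked it. Mesenchymal cells therefore came partly from another source in ORFTOCs than in FTOCs. Epithelial cells differed between the pools in embryonic age and in earlier organoid culture. Both pools were read in 1 gene expression library, and each pool was 1 sample. Neither the pools nor the cell classes could therefore be tested against each other, and no p-value is given. The 95% intervals below cover counting error only.

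After filters, 8392 cells remained, 4247 of ORFTOC and 4145 of FTOC. Cells were clustered without the 9 genes, and a cluster was called by a cell type name with "-like" when its markers allowed it. This gave 18 classes with at least 20 cells in each pool, of which 4 stayed unnamed. Median depth differed strongly between classes, from 1604 UMIs per cell in ORFTOC DP-like cells to 20399 in ORFTOC mesenchymal cells. Levels (CPM) are the UMIs of a gene per 1000000 UMIs of the class in that pool. Cell classes were sized unequally between the pools, with 265 cTEC-like cells in ORFTOC against 34 in FTOC, 629 DP-like cells against 1566, 248 mature SP-like cells against 173 and 227 mesenchymal cells against 64. The pools also differed in the sex of their cells, since 437 of 1235 ORFTOC and 896 of 962 FTOC epithelial cells held Xist and no Y-linked UMI.

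MHC class I molecules carry peptides from inside the cell to its surface, where CD8 T cells read them. The proteasome cuts proteins into peptides, the TAP transporter brings them into the endoplasmic reticulum, tapasin helps to load them, and each molecule is built of a heavy chain and beta-2 microglobulin. Interferons raise most of these genes together, and replace 3 catalytic proteasome subunits by the immunoproteasome subunits. In the thymus, cortical TECs carry a further subunit, Psmb11, that makes the thymoproteasome, whose peptides serve positive selection, while developing thymocytes at the CD4 CD8 double positive (DP) stage are known for low surface class I.

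The promoter letters that the heavy chain and light chain genes share are shown first. H2-K1 had the widest range of the 9, and the profiles of H2-K1, H2-D1 and B2m were the most alike. Promoter sequences were those of RefSeq on GRCm38.p6, which is the mm10 build of the files, and 8 of the 9 genes had an entry. The stretch holding a kB-like motif (GGG, any base, A, any 3 bases, CCC) and an interferon-response-like motif (GAANNGAAA, or a longer form, GAAA, any 2 bases, GAAA), searched on both strands, is given 5′ to 3′ on the gene's strand with the matched letters in capitals.
H2-K1, chr17:34000429-34000458, minus strand: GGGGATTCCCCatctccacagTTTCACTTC
H2-D1, chr17:35262923-35262952, plus strand: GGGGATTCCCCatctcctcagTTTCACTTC
B2m, chr2:122147544-122147573, plus strand: acatGAAACTGAAAatGGGAAAGTCCCttt
The H2-K1 and H2-D1 stretches had 29 of 30 bases in common, and both held the shorter interferon-response-like form after the kB-like motif. The B2m stretch held the longer form, before the kB-like motif, and not the shorter one. In H2-K1 the stretch ran from -125 to -96 of the entry's start, in H2-D1 from -171 to -142 and in B2m from -143 to -114. The H2-K1 entry's start lay inside the gene's listed span (chr17:33996012-34000619), and so did its stretch. In H2-D1 and B2m the entry's start was the outer end of the gene, so the H2-K1 positions are not directly comparable. Of 32817 mouse promoter entries, 6.31% held the shorter interferon-response-like form in the 250 bases before the start, 2.97% the longer form and 4.46% the kB-like motif. The shorter form and the kB-like motif were both in 0.232% of entries, and the longer form and the kB-like motif in 0.11%.

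Closer to the start, the same 3 genes held the letters TGACG followed after 20 bases by ATTGG, the spacing of a cAMP-response-like and a CCAAT-like box. The capitals mark these letters.
H2-K1, chr17:34000359-34000388, minus strand: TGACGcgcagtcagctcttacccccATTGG
H2-D1, chr17:35262993-35263022, plus strand: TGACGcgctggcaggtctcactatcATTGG
B2m, chr2:122147609-122147638, plus strand: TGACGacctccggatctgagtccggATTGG
This spaced pair was in 30 of the 32817 entries, a share of 0.0914%. Among the genes listed for this work, H2-M3, another class I heavy chain gene, held it too. Single motifs were not particular to these genes. Tap1 and Psmb9 each held a kB-like motif, TGACG and a CCAAT-like box. These were the same sites for both genes, read from both ends of the region between their starts. Tapbp held CCAAT-like boxes. The letters of both motif pairs were chosen after these sequences were read, and a match describes letters, not binding. Tap1 (chr17:34187556-34197225) and Psmb9 (chr17:34182030-34187330) lie head to head, with 226 bases between their starts, and Psmb8 lies beside Tap1 at chr17:34198195-34201454. Tapbp is at chr17:33919478-33929290, and Psmb10 and Nlrc5 are on chromosome 8.

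H2-K1 and H2-D1 encode the 2 classical class I heavy chains of C57BL/6 mice. H2-K1 had the widest range of the 9 genes, from 151 CPM in ORFTOC and 147 CPM in FTOC DP-like cells to 6060.4 and 5781 CPM in airway-like epithelial cells, a span of 39.6-fold in the mean of both pools. The DP-like intervals, 130 to 176 and 134 to 162 CPM, did not overlap those of any other class taken whole. Within the cycling thymocyte-like class, described below, some clusters were near or under the DP-like level. Selected-like thymocytes, marked by genes of T cell receptor signalling, stood next at 267 CPM in ORFTOC and 369 CPM in FTOC. Mature SP-like thymocytes, single positive cells about to leave the thymus, had 1793 and 2452 CPM. Macrophage-like cells were close to these at 1958 and 1977 CPM, and NK or cytotoxic-like cells at 1944 and 2271 CPM. ILC3-like cells reached 4020.2 and 4802 CPM and ILC2-like cells 4086 and 3671 CPM, levels near those of the TEC classes.

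The named TEC classes held much H2-K1. cTEC-like cells had 3983 CPM in ORFTOC and 3650 CPM in FTOC, early mTEC-like cells 3959 and 4309 CPM, and Aire mTEC-like cells, which show tissue antigens to thymocytes, 3967 and 3240.1 CPM. Early mTEC-like cells were the lowest of the 3 in ORFTOC and the highest in FTOC, while cTEC-like cells were above Aire mTEC-like cells in both pools, by less in ORFTOC. Free RNA was put at 32.0% and 25.7% of the UMIs of Aire mTEC-like cells (36 and 60 cells), and its part in their values was not tested. Airway-like cells, led by Muc5b and Bpifa1, were above every other of the 18 classes in both pools. Mesenchymal cells were far lower, at 1405 and 1813 CPM.

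**Figure D1:**
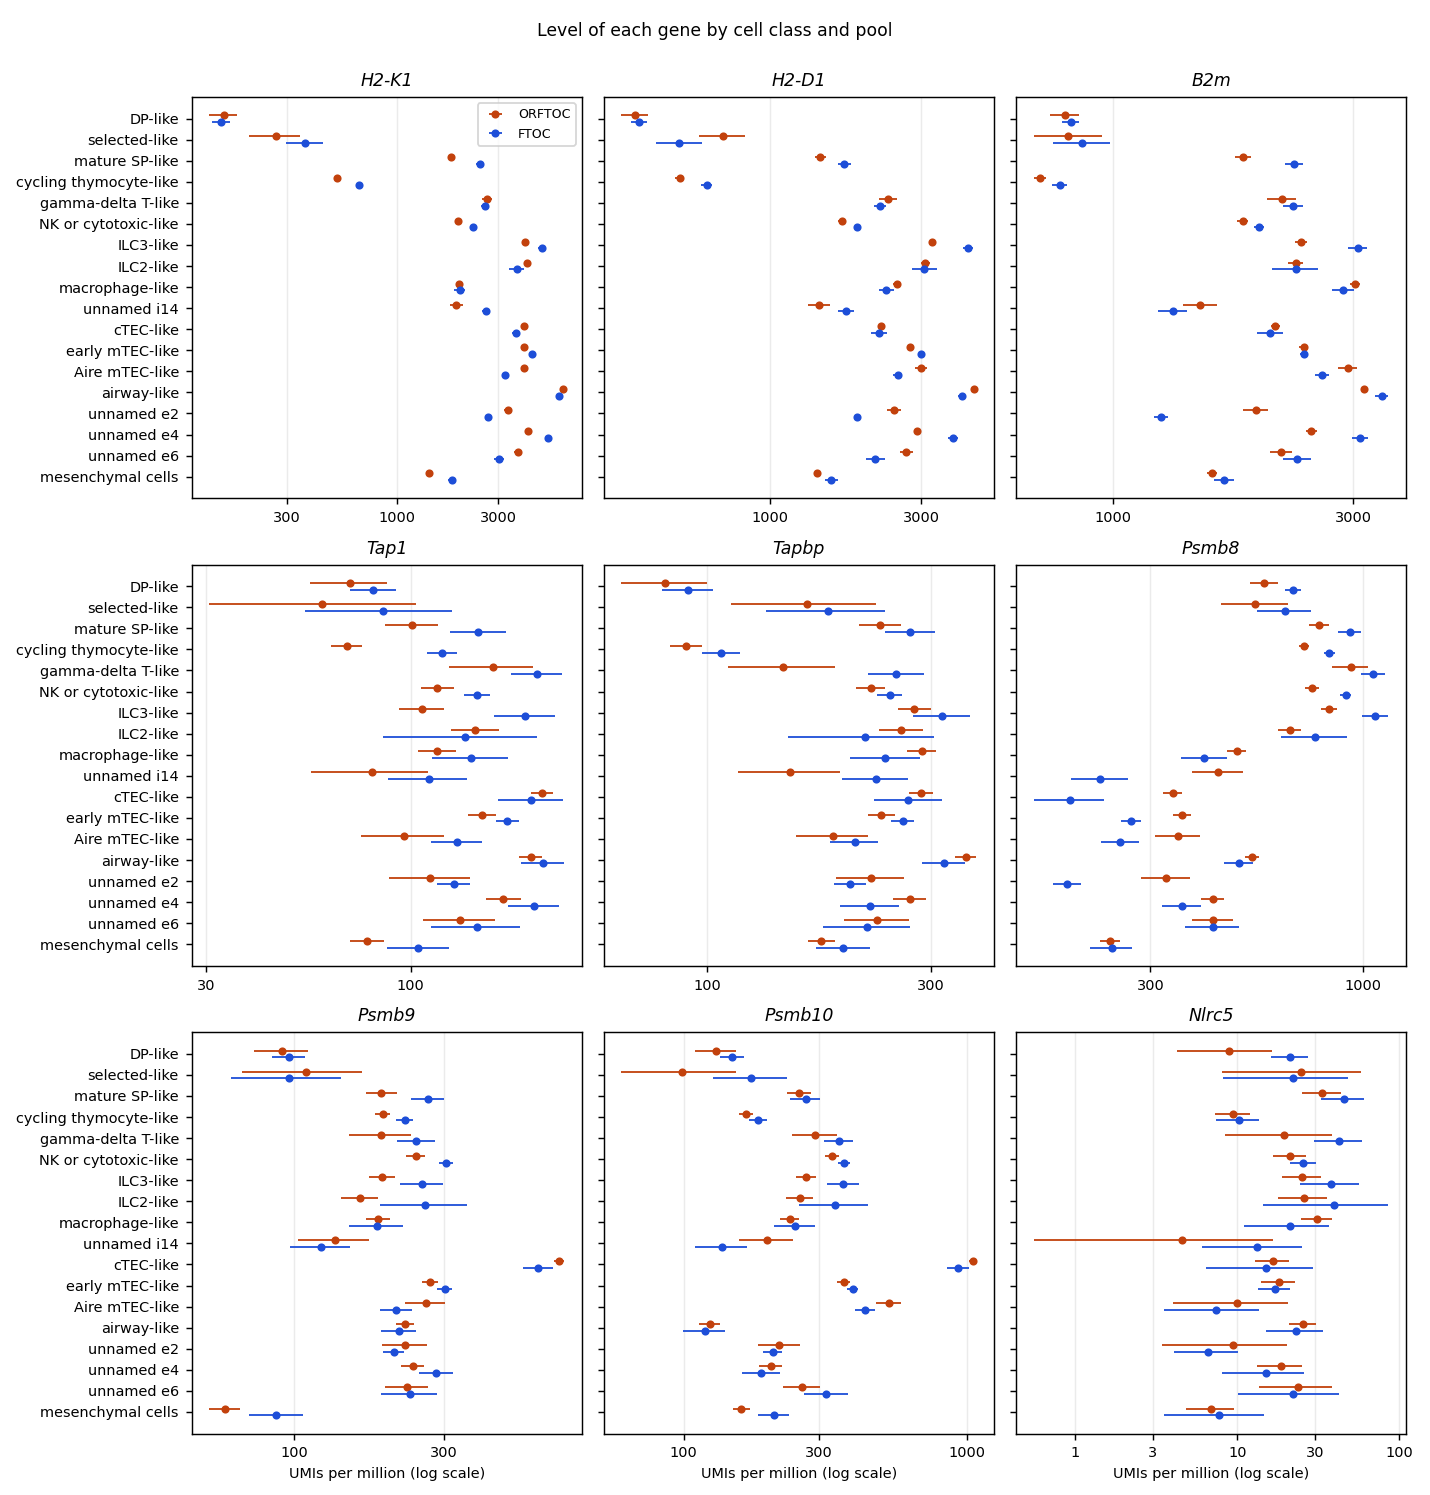
Level of each of the 9 genes (CPM, log axis) in 18 cell classes, with ORFTOC in red, FTOC in blue and bars for exact 95% Poisson intervals. H2-K1 ran from 151 and 147 CPM in DP-like cells to 6060.4 and 5781 CPM in airway-like cells, while Tap1 spanned 2.92-fold over the same classes.

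H2-D1 was also lowest in DP-like cells and had a narrower range, from 376 and 388 CPM there to 4401 and 4020.1 CPM in airway-like cells, a span of 11.02-fold. In FTOC, ILC3-like cells were above airway-like cells, at 4213 CPM. In DP-like cells the heavy chain counts were therefore mostly H2-D1, and H2-K1 made up 28.7% of H2-K1 and H2-D1 UMIs in ORFTOC (exact binomial interval 25.1 to 32.5%) and 27.6% in FTOC (25.3 to 29.9%). In mature SP-like cells the share was 55.4% and 58.8%, in cTEC-like cells 64.0% and 62.4%, and in mesenchymal cells 49.9% and 53.7%. Selected-like cells differed between the pools, with 27.3% (21.2 to 34.0%) in ORFTOC and 41.5% (35.2 to 48.0%) in FTOC. The heavy chain genes are near copies of one another and of the H2-Q and H2-T genes, so reads that fit several of them may have been lost or misplaced, and shares between them carry that uncertainty.

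Free RNA bears on the lowest of these values. Droplets without a cell held H2-K1 at 1039 CPM, and free RNA was put at 6.22% of DP-like UMIs in ORFTOC and 5.84% in FTOC. After its subtraction, H2-K1 in DP-like cells was 92.4 and 92.1 CPM, so the gap to other classes widened. In cells thinned to 1000 UMIs, 12.3% of ORFTOC and 12.0% of FTOC DP-like cells held an H2-K1 UMI (19.2% and 19.0% before thinning), against 79.8% and 89.0% of mature SP-like cells (98.8% and 100% before thinning). No class here lacks the gene and could give its background share.

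B2m encodes the light chain that all class I heavy chains need. Its range was narrower, 4.39-fold, with 715 and 783 CPM in cycling thymocyte-like cells, 801 and 823 CPM in DP-like cells, 814 and 866 CPM in selected-like cells, 1815 and 2288 CPM in mature SP-like cells, and 3161 and 3421 CPM in airway-like cells. DP-like and selected-like levels overlapped in their intervals in both pools. Macrophage-like cells had 3028 and 2867 CPM and stood above the 3 named TEC classes, of which Aire mTEC-like cells came nearest at 2929 and 2603 CPM. The unnamed epithelial cluster led by Igfbp2, Ndrg1 and Aqp3 was the lowest epithelial class in FTOC, at 1246 CPM, and held 1921 CPM in ORFTOC.

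In mature SP-like cells 7 of the 9 genes were higher than in DP-like cells by more than 1.5 fold in both pools, and none was lower by that much. Over all 5687 genes tested, 7.49% were higher and 44.6% lower past 1.5 fold in both pools, and the median gene was lower by 0.61 (log2) in ORFTOC and 0.63 in FTOC in mature SP-like cells. The median of the 9 genes was a log2 difference of 1.18 in ORFTOC and 1.48 in FTOC. H2-K1 was higher by 11.8-fold (10.1 to 13.9) in ORFTOC and 16.6-fold (15.0 to 18.5) in FTOC. H2-D1 was higher by 3.83-fold and 4.43-fold, and B2m by 2.27-fold and 2.78-fold. Tapbp, which encodes tapasin, was higher by 2.87-fold and 2.97-fold. Psmb9 was higher by 2.08-fold and 2.79-fold and Psmb10 by 1.96-fold and 1.82-fold. Tap1 passed the fold in FTOC alone, at 1.85-fold (1.496 to 2.29) against 1.44-fold (1.09 to 1.91) in ORFTOC. Psmb8 stayed within it in both pools, at 1.37-fold and 1.38-fold, from 570.1 and 672 CPM in DP-like cells. With TMM or median-of-ratios scaling, which move the whole contrast up, all 9 members passed the fold in both pools, and the mean log2 difference under TMM was 1.06 for Psmb8 in place of 0.46 and 1.31 for Tap1 in place of 0.71.

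The sizes depend on how stages and scale were set. Taking stages by per-cell gates on raw UMIs gave a mean log2 difference of 2.83 for H2-K1 in place of 3.81, and subtraction of free RNA gave 4.52. These were the lowest and the highest of 15 alternatives. DP-like cells held less RNA per cell and a small amount of epithelial marker RNA, with all 6 epithelial markers found at a summed 174 and 157 CPM against 38.9 and 42.3 CPM in mature SP-like cells, and its part in the difference was not tested.

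The genes did not move at one step. From DP-like to selected-like cells, H2-K1 was 1.76-fold higher in ORFTOC (1.27 to 2.40) and 2.50-fold in FTOC (1.99 to 3.12), and Tapbp 2.0-fold and 1.98-fold, whereas B2m was at 1.02-fold (0.856 to 1.201) and 1.05-fold (0.916 to 1.204). From selected-like to mature SP-like cells H2-K1 was higher by 6.73-fold and 6.65-fold and B2m by 2.23-fold and 2.64-fold. The B2m interval included 1 at the first step in both pools and lay above 1.5 at the second. Only 78 and 112 selected-like cells with medians of 2296 and 2048 UMIs stood behind these values, so Tap1 in them rested on 12 and 23 UMIs.

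**Figure D2:**
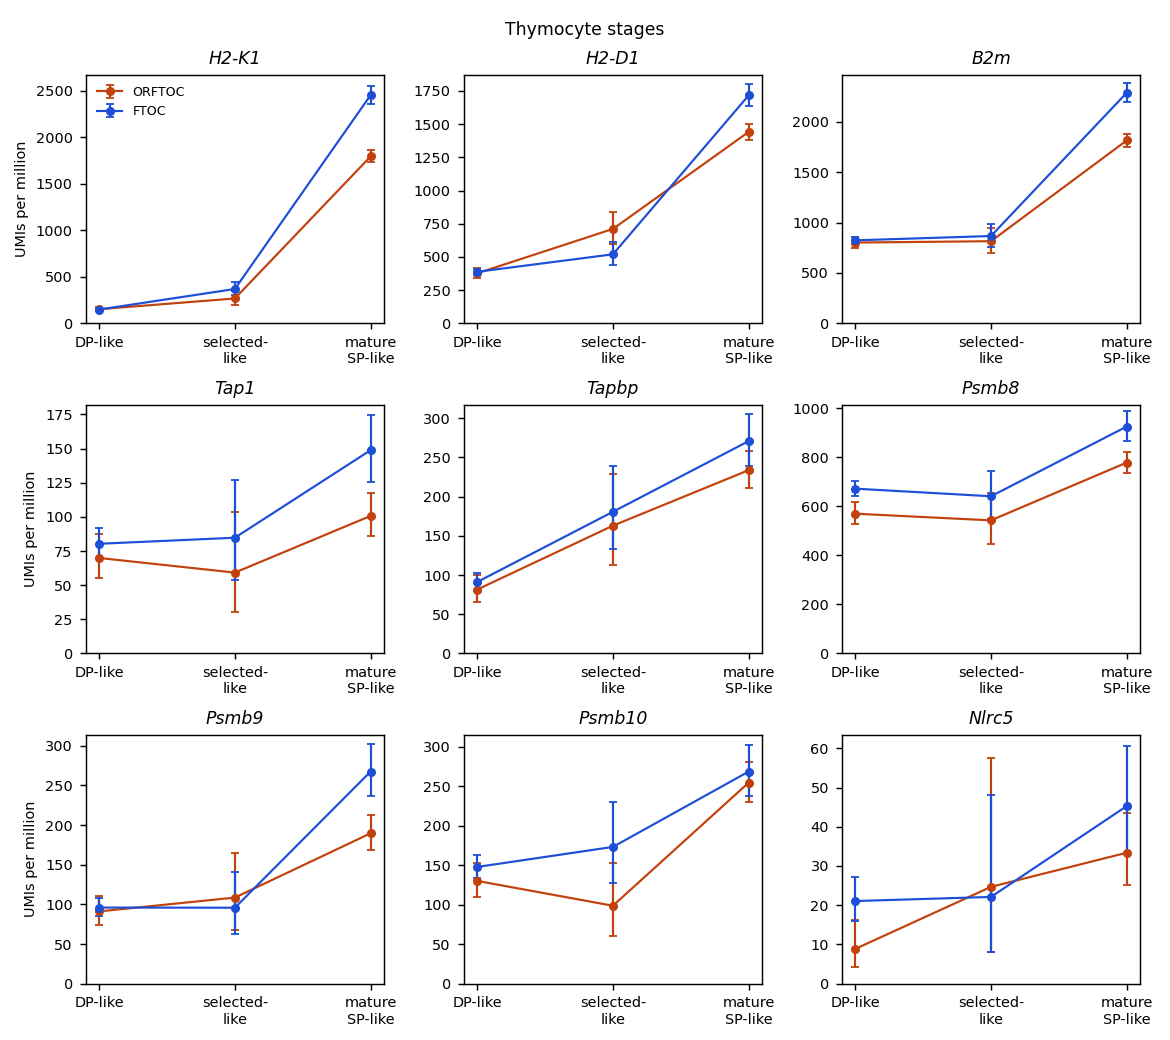
Levels of the 9 genes (CPM) in DP-like, selected-like and mature SP-like thymocytes of both pools, with exact 95% Poisson intervals. H2-K1 rose from 151 over 267 to 1793 CPM in ORFTOC and from 147 over 369 to 2452 CPM in FTOC, while B2m stayed at 801 and 814 CPM, then 1815 CPM, in ORFTOC.

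Cycling thymocyte-like cells were made of 3 clusters that differed in these genes. A pair of them, with 228 and 209 cells (ORFTOC and FTOC) and with 123 and 117 cells, held Ptcra, Rag1 and Dntt, genes of early T cell receptor assembly, and had H2-K1 at 110 to 216 CPM, near the DP-like level. The remaining one, with 173 and 111 cells, had 1 Ptcra UMI in each pool and Nkg7, a gene of cytotoxic cells, at 470.5 and 617 CPM. Its H2-K1 was 1165 CPM in ORFTOC and 1641 CPM in FTOC, H2-D1 1015 and 1363 CPM, and B2m 1139 and 1377 CPM. The pooled class value of H2-K1, 521 and 662 CPM, was therefore a mean of low and high clusters and of no 1 kind of cell. The class values of H2-D1 and B2m were means of this kind too, and lay below those of the cluster with Nkg7.

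Within mature SP-like cells, those with Cd4 UMIs alone and those with Cd8 UMIs alone (52 and 112 cells in ORFTOC, 43 and 51 in FTOC) had similar levels. H2-K1 was 1913 CPM in the Cd4 and 1669 CPM in the Cd8 cells of ORFTOC, a ratio of 1.15 (1.04 to 1.26), and 2746 and 2008 CPM in FTOC, a ratio of 1.37 (1.22 to 1.53). H2-D1 and B2m were also slightly higher in the Cd4 cells of both pools, by 1.15-fold to 1.23-fold. Psmb8 in ORFTOC was at 782 and 774 CPM, with an interval of the ratio that included 1.

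Tap1 encodes 1 of the 2 chains of the peptide transporter and was the most even of the 9 genes, with a span of 2.92-fold over the classes. Among its highest levels were 217 and 203 CPM in cTEC-like cells, 203 and 217 CPM in airway-like cells and 162 and 210.2 CPM in gamma-delta T-like cells. The intervals of these 3 classes overlapped within each pool. DP-like cells had 69.9 and 80.3 CPM and mesenchymal cells 77.5 and 105 CPM. Although Tap1 and Psmb9 share the region between their starts, Tap1 took 23.5% of the UMIs of both in cTEC-like cells of ORFTOC and 25.2% in FTOC, against 56.4% and 54.5% in mesenchymal cells. Tapbp ran over 3.91-fold, from 81.4 and 91.0 CPM in DP-like cells to 356 and 319 CPM in airway-like cells, with the 3 named TEC classes between 185 and 285 CPM.

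The 3 immunoproteasome subunits went separate ways across classes. Psmb8, the chymotrypsin-like subunit that takes the place of Psmb5, was highest in lymphoid cells, at 931 and 1056 CPM in gamma-delta T-like cells and 824 and 1069.5 CPM in ILC3-like cells, and lowest in mesenchymal cells of ORFTOC (238 CPM), in the Igfbp2-led epithelial cluster of FTOC (187 CPM) and in cTEC-like cells of FTOC (190.1 CPM). Psmb9, which takes the place of Psmb6, and Psmb10, which takes the place of Psmb7, were highest in cTEC-like cells in both pools. Psmb9 was at 704 and 604 CPM there and Psmb10 at 1043 and 926 CPM, above every other class with intervals that did not overlap. Next for Psmb10 came Aire mTEC-like cells at 527 and 435 CPM and early mTEC-like cells at 366 and 394 CPM, while airway-like cells, the highest class for H2-K1, were among the lowest for Psmb10, at 123 and 118 CPM, with selected-like cells at 98.7 and 173 CPM. DP-like cells, at 130.1 and 148 CPM, had Psmb10 levels whose intervals overlapped those of airway-like cells in ORFTOC.

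Against all other epithelial cells, cTEC-like cells had 2 of the 8 members tested past 1.5 fold higher in both pools and none lower, with 8.55% of all genes higher and 6.23% lower. Psmb9 was 2.95-fold higher in ORFTOC (2.81 to 3.10) and 2.40-fold in FTOC (2.14 to 2.70), and Psmb10 4.24-fold (4.05 to 4.44) and 3.11-fold (2.82 to 3.41). Psmb8 went the other way within the fold, at 0.808-fold (0.762 to 0.857) and 0.680-fold (0.553 to 0.828), and so did H2-D1, at 0.678-fold and 0.790-fold. Tap1 was 1.33-fold and 1.25-fold. Against early mTEC-like cells alone, Psmb9 was 2.59-fold and 1.999-fold and Psmb10 2.85-fold and 2.35-fold higher. Psmb11, the thymoproteasome subunit, was at 815 and 652 CPM, against 6.78 and 18.3 CPM in the other epithelial cells. It was neither a clustering gene nor one of the markers that named this cluster. The FTOC values rest on 34 cells.

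Shares within each pair of subunits that take the same place show the same split without the scale. Psmb10 made up 91.0% of Psmb10 and Psmb7 UMIs in ORFTOC cTEC-like cells (90.2 to 91.8%) and 90.4% in FTOC (87.6 to 92.7%), against 60.0% and 58.3% in airway-like and 53.1% and 60.4% in DP-like cells. Psmb9 made up 61.9% and 59.4% of Psmb9 and Psmb6 UMIs in cTEC-like cells, against 17.8% and 25.8% in mesenchymal and 23.5% and 25.3% in DP-like cells. Psmb8 made up 46.0% of Psmb8 and Psmb5 UMIs in ORFTOC cTEC-like cells and 32.8% in FTOC, against 71.6% and 74.7% in DP-like and 71.3% and 77.8% in mature SP-like cells. The Psmb8 share was thus above the Psmb9 share in DP-like cells and below it in cTEC-like cells, in both pools. The Psmb8 share of ORFTOC cTEC-like cells was close to that of Aire mTEC-like (46.8%) and mesenchymal cells (46.4%), with Psmb11 left out. Psmb11 takes the same place as Psmb5 and Psmb8, and was at 815 CPM in ORFTOC and 652 CPM in FTOC cTEC-like cells. In ORFTOC it was at 29.7 CPM in Aire mTEC-like and 0.197 CPM in mesenchymal cells. With Psmb11 counted, the Psmb8 share of cTEC-like cells would be lower in both pools. The shares given here are of 5′ UMIs per transcript, not of protein in the particle.

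**Figure D3:**
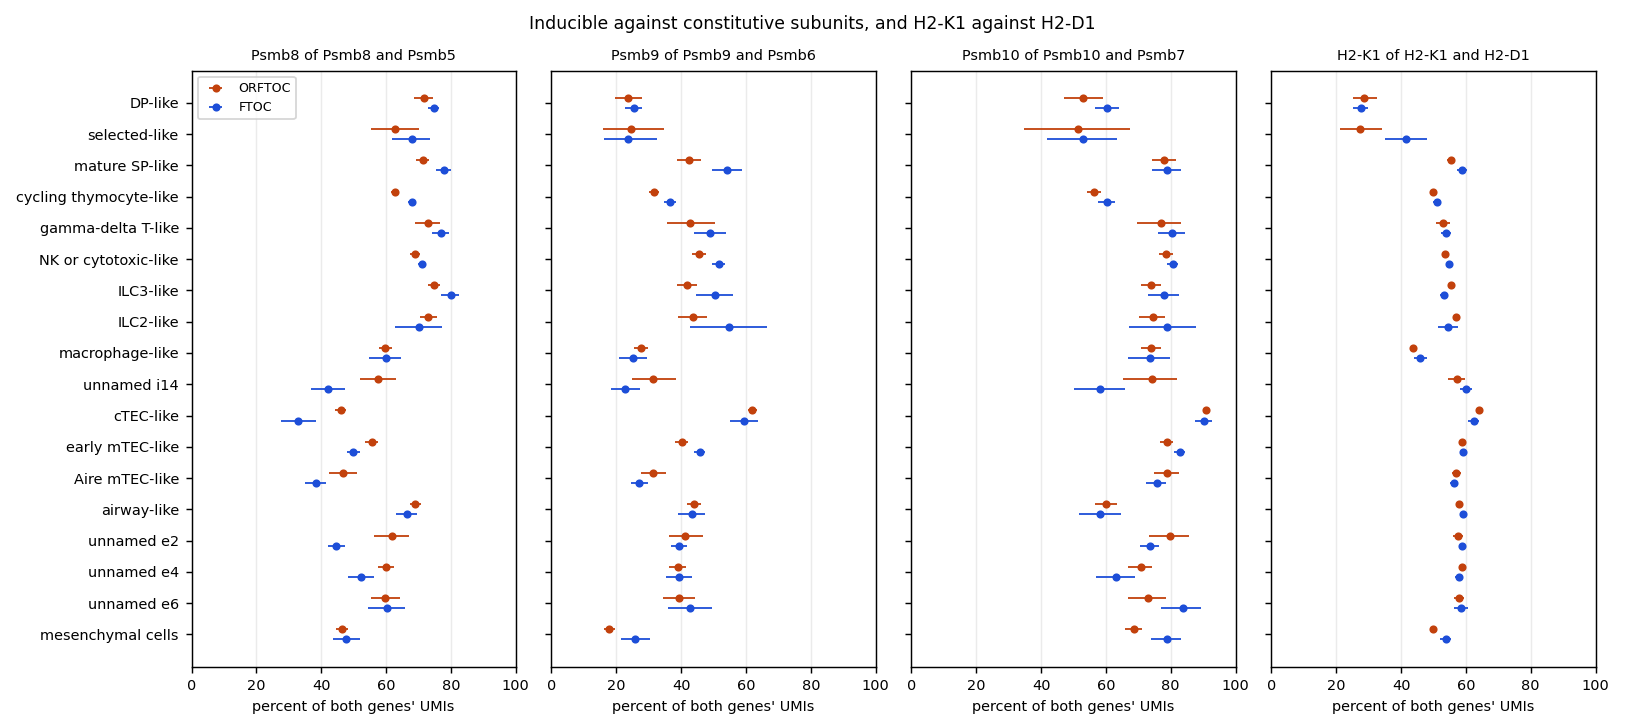
Share (percent of the UMIs of both genes) of Psmb8 over Psmb5, Psmb9 over Psmb6, Psmb10 over Psmb7 and H2-K1 over H2-D1 in each class and pool, with exact 95% binomial intervals. cTEC-like cells were at 91.0% and 90.4% for Psmb10 and at 46.0% and 32.8% for Psmb8, with Psmb11 not counted.

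**Figure D4:**
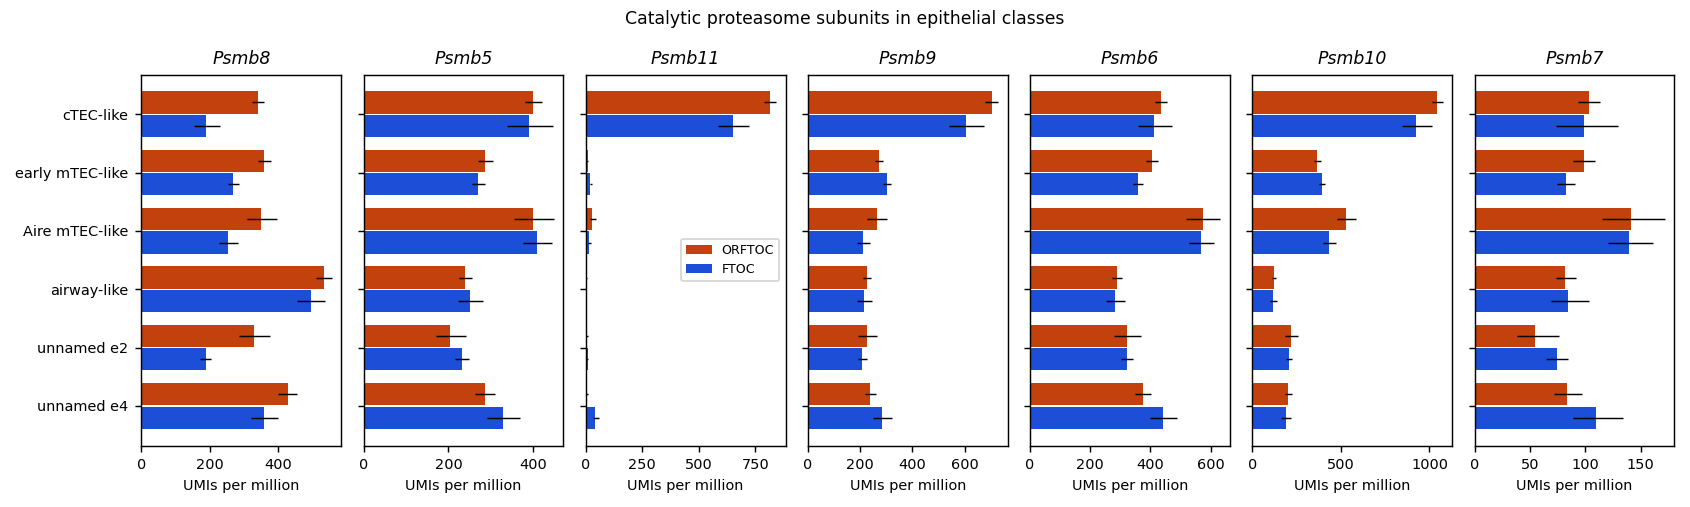
Levels (CPM, bars from 0, exact 95% Poisson intervals) of the 3 immunoproteasome subunits, their constitutive counterparts and Psmb11 in 6 epithelial classes of both pools. Psmb9 and Psmb10 were highest in cTEC-like cells and Psmb8 in airway-like cells, at 533 and 494 CPM.

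Nlrc5 encodes the transactivator that binds to class I promoters through partner proteins. It was the scarcest of the 9 genes, from 6.9 and 7.7 CPM in mesenchymal cells to 33.4 and 45.3 CPM in mature SP-like cells, a span of 5.38-fold in the mean of both pools. In mature SP-like cells it was 3.77-fold (1.90 to 8.30) above DP-like cells in ORFTOC and 2.15-fold (1.43 to 3.22) in FTOC. Between the pools, DP-like cells had 10 UMIs in ORFTOC and 59 in FTOC, 8.9 and 21.1 CPM, a ratio of 0.420 (0.192 to 0.828) with a mean under the 20 CPM that a call needed. The epithelial values, 18.4 and 13.9 CPM, were as low, although H2-K1 there was higher than in mature SP-like cells.

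Epithelial cells as a whole were set against DP-like cells, and 7 of the 8 members tested were higher past 1.5 fold in both pools, against 21.3% of all genes higher and 35.3% lower. H2-K1 was 29.4-fold higher in ORFTOC (25.3 to 34.3) and 26.5-fold in FTOC (24.1 to 29.3), and H2-D1 8.10-fold and 7.12-fold. B2m was 3.12-fold and 2.74-fold higher, Tap1 2.51-fold and 2.05-fold, and Tapbp 3.44-fold and 2.66-fold. Psmb8 was the exception, at 0.703-fold (0.649 to 0.764) in ORFTOC and 0.410-fold (0.388 to 0.434) in FTOC. Epithelial cells held a median of 13225 and 12125 UMIs against 1604 and 1634 in DP-like cells, and the part of depth in these ratios was not tested.

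Mesenchymal cells were set against epithelial cells, and 5 of the 8 members tested were lower past 1.5 fold in both pools and none higher, against 16.3% of all genes lower and 15.6% higher. H2-K1 was 0.316-fold in ORFTOC and 0.463-fold in FTOC, H2-D1 0.463-fold and 0.566-fold, Tap1 0.441-fold and 0.636-fold, Psmb10 0.361-fold and 0.638-fold, and Psmb9 0.170-fold (0.151 to 0.191) and 0.328-fold (0.267 to 0.3997). B2m, Tapbp and Psmb8 passed the fold in ORFTOC alone, at 0.629, 0.625 and 0.595. With median-of-ratios scaling, 3 of the 8 were lower past the fold in both pools.

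The pools were compared next within each class, which asks whether cells beside organoid TECs carried these genes at the level of cells in an intact lobe. In the epithelial cells as a whole, none of the 8 members tested differed past 1.5 fold, against 6.13% of all genes higher and 3.59% lower in ORFTOC. All 8 were higher in ORFTOC within that limit, from 1.07-fold for Tap1 (1.01 to 1.13) to 1.45-fold for Psmb8 (1.40 to 1.52), and Psmb9 and Psmb10 were 1.32-fold and 1.36-fold. The pools differed in their mix of epithelial clusters, and with each of the 7 clusters given the same weight in both pools the log2 difference of Psmb10 was 0.07, of Psmb9 0.05, of H2-K1 0.02 and of Tap1 -0.14, while that of Psmb8 was 0.39.

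Psmb8 was at or above its FTOC level in ORFTOC in 7 of 7 epithelial classes, in 5 of them with an interval above 1, and below it in 8 of 10 immune classes, in 6 of them with an interval below 1. An unnamed cluster on each side was mostly of cells with both epithelial and immune markers. The one among the immune classes, led by Pth and Chga, had 44 of 71 such cells in ORFTOC and 57 of 80 in FTOC, and its epithelial markers, at a summed 3066 and 3959 CPM, were above its immune ones, at 2229 and 852 CPM. The one among the epithelial classes, led by Ms4a4b and Cd8b1, had 32 of 41 and 23 of 29. Without both, Psmb8 was higher in 6 of 6 epithelial and lower in 8 of 9 immune classes. In cTEC-like cells it was 340.2 CPM in ORFTOC and 190.1 CPM in FTOC, 1.79-fold (1.46 to 2.21). It was the 1 member higher past the fold there, beside 9.28% of all genes. In the Igfbp2-led epithelial cluster, B2m was 1.54-fold and Psmb8 1.75-fold higher in ORFTOC, beside 7.33% of all genes higher past 1.5 fold. Airway-like cells were close, with Psmb8 at 533 and 494 CPM, H2-K1 at 1.05-fold and B2m at 0.924-fold.

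Thymocytes were compared in the same way. DP-like cells had none of 8 members past 1.5 fold, against 1.34% of all genes higher and 1.64% lower in ORFTOC, and 7 of the 8 intervals included 1. H2-K1 was at 1.03-fold (0.854 to 1.23), B2m at 0.974-fold (0.901 to 1.05) and Psmb8 at 0.848-fold (0.774 to 0.928). Mature SP-like cells also had none of 9 past the fold, against 4.78% higher and 4.02% lower, but all 9 were lower in ORFTOC, and 6 intervals lay below 1. H2-K1 was at 0.731-fold (0.693 to 0.772), Psmb9 at 0.709-fold (0.600 to 0.839), Tap1 at 0.677-fold (0.538 to 0.851) and B2m at 0.793-fold (0.751 to 0.838). Tap1 lay next to the limit, and 8 of the alternatives moved 1 member past it. In cells that held Xist and no Y-linked UMI, the log2 difference of Tap1 was -0.20 in place of -0.56, and that of H2-K1 -0.55 in place of -0.45.

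In cycling thymocyte-like cells 1 of 8 members, Tap1, was lower in ORFTOC past the fold, with 0.591% of all genes higher and 2.29% lower. Tap1 was 68.6 CPM in ORFTOC and 120.2 CPM in FTOC, 0.571-fold (0.503 to 0.648). It was lower in each of the 3 clusters, at 0.582-fold and 0.735-fold in the pair with Ptcra and Rag1 and at 0.524-fold in the one with Nkg7, although the interval of the second included 1. H2-K1 did not have 1 direction in them. It was 1.25-fold (1.05 to 1.48) and 1.24-fold (1.02 to 1.51) in the pair and 0.710-fold (0.673 to 0.7495) in the other, where the class as a whole had 0.788-fold.

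Tap1 was lower in ORFTOC in 16 of the 18 classes, and in 14 of 16 without the clusters of mixed cells, and in 7 its interval lay below 1. In ILC3-like cells it was 107 CPM in ORFTOC and 196 CPM in FTOC, 0.543-fold (0.435 to 0.681), while H2-K1 there was 0.837-fold and H2-D1 0.768-fold. Of the 9 members, 2 were lower past the fold in ILC3-like cells, beside 5.25% of all genes. Gamma-delta T-like cells had Tapbp at 0.574-fold (0.423 to 0.768) and H2-K1 at 1.02-fold (0.951 to 1.10). There 2 of the 9 members were lower past the fold, beside 13.5% of all genes. Mesenchymal cells had none of 8 members past the fold, against 3.35% higher and 9.26% lower, and H2-K1 at 0.775-fold, Psmb9 at 0.685-fold and B2m at 0.947-fold. TMM scaling placed B2m above its FTOC level in these cells, at 0.06 (log2), and Psmb8 at 0.13. The cultured fibroblasts went into ORFTOC alone, so cell source and culture cannot be told apart in these cells.

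**Figure D5:**
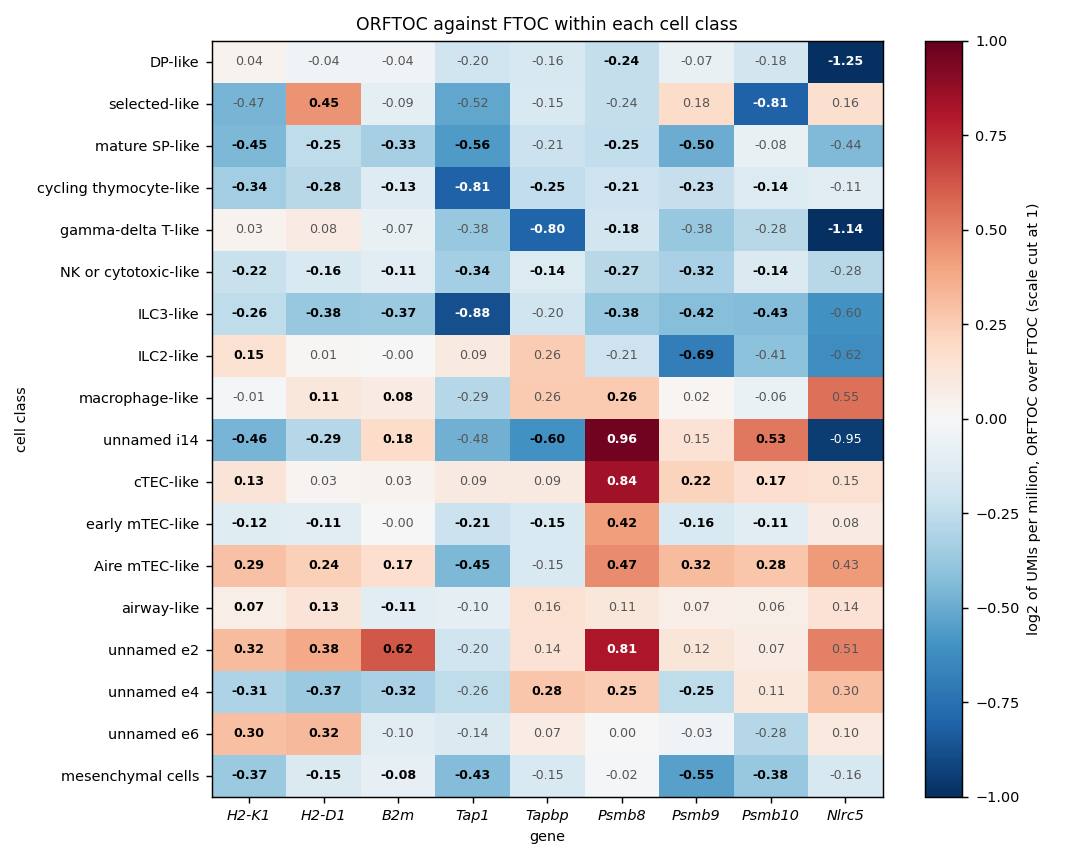
Log2 ratio of ORFTOC over FTOC for the 9 genes in 18 cell classes, as a heat map whose colours stop at 1 and -1 and whose bold values have a 95% interval that excludes 0. Psmb8 is red in the epithelial classes other than the mixed cluster led by Ms4a4b and Cd8b1, where the pools were level (426.6 and 426.4 CPM). It is blue in 8 of the 10 immune classes, and Tap1 is blue in 16 of 18 classes.

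Genes that work beside the 9 were read by lists. Of 8 loading partners, 3 were higher past 1.5 fold in mature SP-like than in DP-like cells in ORFTOC and 3 in FTOC, beside 9.38% and 8.91% of all genes. Psme2 and Psme1, the proteasome activator subunits, were 3.20-fold and 2.12-fold higher in ORFTOC and 3.35-fold and 1.93-fold in FTOC. Tap2, the partner chain of Tap1, was lower past the fold in ORFTOC, at 0.545-fold, and within it in FTOC, at 0.673-fold, with 214 and 254 CPM in DP-like cells. In cTEC-like cells Tap2 was 2.11-fold and 1.86-fold above the other epithelial cells, and Psme1 was 0.390-fold and 0.360-fold. Between pools, the epithelial cells had Tap2 1.55-fold higher in ORFTOC, beside 6.13% of all genes, and the other 7 were within the fold. By class, Tap2 was 233 CPM in ORFTOC and 162 CPM in FTOC cTEC-like cells, and 110 and 87.3 CPM in the other epithelial cells. Among the latter, early mTEC-like cells went the other way, at 89.9 and 98.0 CPM. The pools differed in their mix of epithelial clusters, and its part in the Tap2 ratio was not tested.

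From DP-like to mature SP-like cells, most other class I heavy chains with enough counts went up, as H2-K1 did. They did not all follow H2-K1 in the epithelial classes. Of the 6 of 9 with enough counts, 4 were higher past 1.5 fold in mature SP-like than in DP-like cells in ORFTOC and 6 in FTOC, beside 9.38% and 8.91% of all genes. H2-Q7 was the steepest, at 12.4-fold in ORFTOC and 16.3-fold in FTOC, up to 121 and 204 CPM, over 11 and 35 UMIs in DP-like cells. H2-T23, which encodes the Qa-1 molecule read by NK cells, was at 1.26-fold and 1.54-fold. Between pools, H2-Q7 and H2-T24 were lower in ORFTOC mature SP-like cells, at 0.593-fold and 0.648-fold.

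Between pools all 14 constitutive proteasome core genes stayed within 1.5 fold in epithelial, mesenchymal, DP-like, cycling thymocyte-like and mature SP-like cells. In cTEC-like cells 5 of 14 were higher in ORFTOC and 3 in FTOC against other epithelial cells, beside 14.2% and 14.9% of all genes, with a list median of 0.53 and 0.40 (log2) where the median of all genes was 0.04 and 0.07. Psmb4 was the largest, at 2.19-fold and 1.92-fold. Psmb5, Psmb6 and Psmb7, the subunits that Psmb8, Psmb9 and Psmb10 replace, were within the fold in cTEC-like cells in both pools.

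Genes that respond to interferons differed between the pools by cell class. In mature SP-like cells 9 of 14 tested were lower past 1.5 fold in ORFTOC and none higher, beside 4.02% of all genes lower, with a median of -0.79 (log2) where all genes had 0.04. Ifit3 was 42.7 CPM in ORFTOC and 147 CPM in FTOC, and Gbp2 69.2 and 153 CPM. Irf1 was close, at 133 and 138 CPM. In gamma-delta T-like cells 13 of 14 were lower, beside 13.5% of all genes, and in ILC3-like cells 9 of 14, beside 5.25%. In epithelial cells 2 of 15 were lower, beside 3.59% of all genes, among them Cxcl10 at 461 CPM in ORFTOC and 750.0 CPM in FTOC. Aire mTEC-like cells had 7 of 14 lower and 1 higher, beside 7.44% and 10.1%, with a median of -0.68 (log2), and early mTEC-like cells 4 of 15 lower, beside 3.09%. In cTEC-like cells 4 of 15 were higher and 1 lower, beside 9.28% and 7.91% of all genes, with Iigp1 at 684 and 341 CPM, 2.01-fold. Whether these differences and those of the members share a source was not tested.

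Over 36 profiles, 18 classes in each pool, the levels of the 9 genes followed one another to different degrees, as a description, since all profiles share 1 lane and classes of a pool share free RNA. H2-K1 and H2-D1 had a Pearson r of 0.96, H2-D1 and B2m 0.94, and H2-K1 and Tapbp 0.82. Psmb9 and Psmb10 had 0.76. Psmb8 stood apart, with -0.22 against H2-K1, -0.01 against Psmb9 and 0.65 against Nlrc5. Outside the lists, the genes whose profile was most like the mean of the 9 were Plaat3 (r of 0.83), Cish (0.82), Ubash3b (0.80), Mapkapk3 (0.78) and Sorl1 (0.77), followed by Fam173a, Hint2, Snx14, Apobec3 and Prr13.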

How the data were processed

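The authors deposited 1 matrix of raw UMI counts per gene and barcode for both pools, with hashtag counts in it. It was made with Cell Ranger on mm10 (version 6.1.2 in the submitters' processing notes) from a 10x 5′ library, and includes empty droplets. The T cell receptor contig tables were not used here. Of 705161 barcodes, those with at least 600 genes and 0.4 to 10% mitochondrial UMIs were kept (10245). HTODemux in Seurat 5.3.0 assigned pools and removed 590 doublets between pools and 672 negative barcodes, and 591 barcodes whose neighbours were mostly such doublets were removed as doublets within a pool. Cells were clustered after SCTransform 0.4.2 on 18 components without the 9 genes and the listed genes. Clusters were named from fixed markers, and the limits of that rule were set after the clusters' leading genes were seen.

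UMIs were summed per class and pool and divided by the class total. Ratios have conditional exact binomial intervals, levels exact Poisson intervals. A gene was called past 1.5 fold when its mean was at least 20 CPM, and class contrasts had to hold in both pools. Simulated counts were used to check the calls. Named were the 9 genes in every class, at most 4 genes of each list and the 10 genes with the most similar profile, and other genes are given as counts. The comparison of the 3 cycling clusters, with Ptcra, Rag1, Dntt and Nkg7, and the counts without clusters of mixed cells were added after values were seen. The 9 genes and the lists were chosen with earlier results of these data known. Scaling alternatives used edgeR 4.0.16 and DESeq2 1.42.0. In all 16 alternatives were run.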

Additional observations from a re-analysis of the deposited data

Results flagged for a closer look

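Between ORFTOC and FTOC, 8 of the 9 genes were higher in epithelial cells and lower in at least 1 other class, with intervals that excluded no difference on both sides. The difference between the classes itself was not tested. As log2 ratios of ORFTOC over FTOC, H2-K1 was at 0.18 in epithelial cells, -0.34 in cycling thymocyte-like cells, -0.45 in mature SP-like cells and -0.37 in mesenchymal cells. H2-D1 was at 0.14, -0.28, -0.25 and -0.15 in the same order, and B2m at 0.15, -0.13, -0.33 and -0.08. Tap1 was at 0.10, -0.81, -0.56 and -0.43. Tapbp was at 0.21 in epithelial and -0.25 in cycling thymocyte-like cells. Psmb8 was at 0.54 in epithelial cells, -0.24 in DP-like, -0.21 in cycling thymocyte-like and -0.25 in mature SP-like cells. Psmb9 was at 0.40 in epithelial, -0.23 in cycling thymocyte-like, -0.50 in mature SP-like and -0.55 in mesenchymal cells. Psmb10 was at 0.44 in epithelial, -0.14 in cycling thymocyte-like and -0.38 in mesenchymal cells. With equal cluster weights in both pools, the epithelial values were near 0 for most of these genes, at 0.02 for H2-K1, 0.05 for Psmb9, 0.07 for Psmb10 and -0.14 for Tap1, while that of Psmb8 was 0.39. The cycling value of H2-K1 was negative in the cluster with Nkg7 and positive in the other 2 clusters. Scaling by TMM turned the mesenchymal value of B2m to 0.06.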

How the results depend on the processing

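No member past 1.5 fold turned its direction under the 16 alternatives, and 245 of the counts of members past 1.5 fold stayed within 1.5 times the value reported. The 17 that moved were small counts next to the limit. Members lower in ORFTOC mature SP-like cells numbered 0 as reported and 1 with at least 1000 genes per cell, with pools set by the hashtag ratio, with log-normalised counts, with 30 components, with the members kept among the clustering genes, with equal weight of cells, without cells of mixed identity and with stages by per-cell gates. Members lower in epithelial than in DP-like cells numbered 0 as reported and 1 with at least 1000 genes, with Xist-positive cells alone and with per-cell gates. In mesenchymal cells the count lower in ORFTOC was 0 as reported, 2 with the hashtag ratio, and 1 with free RNA subtracted and with Xist-positive cells alone. Members lower in mesenchymal than in epithelial cells numbered 5 as reported and 3 with median-of-ratios scaling. In DP-like cells the count lower in ORFTOC was 0 as reported, and 1 without the filter on low values and with per-cell gates. The cause was not tested. Of the log2 ratios of single genes, 143 moved and 1036 did not. No paired analysis was possible because each pool was 1 sample with no replicate. Counts were few for Tap1 in selected-like cells (12 and 23 UMIs) and for Nlrc5 in ORFTOC DP-like cells (10 UMIs). Without the clusters of mixed cells, an alternative chosen after seeing the data, the counts of classes in which Psmb8 and Tap1 differed stayed within 1.5 times those reported. With 1 sample per pool, no interval covers the spread between cultures, and pool and cell source cannot be told apart.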

Other observations

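An immune cluster led by Fscn1, Ccl22, Ccl17 and class II genes, with 25 cells in ORFTOC and 4 in FTOC, was too small for the comparisons above. It held the highest B2m, Psmb8 and Nlrc5 levels seen in ORFTOC, at 3884, 1476 and 93.6 CPM, and Psmb9 at 620 CPM, next to the 704 CPM of cTEC-like cells. Tuft-like epithelial cells, with 21 and 4 cells, had H2-D1 at 2732 CPM above H2-K1 at 2566 CPM in ORFTOC, and Psmb8 at 147 CPM, below every class of at least 20 cells in each pool. A cluster led by Foxi2, Ascl3 and Foxi1, with 28 and 15 cells, had H2-K1 at 4568 and 5571 CPM and Psmb9 at 139 and 142 CPM.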
